A study of Bos taurus with 28 samples.

Results

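The genes described here were 5 genes of macrophages and neutrophils in the bovine uterus, taken by their name and Ensembl gene ID, to ask whether leukocyte transcripts were more abundant 12 h after artificial insemination (AI). They were C1QA (ENSBTAG00000007153) and C1QB (ENSBTAG00000011196), which encode chains of complement C1q, NCF1 (ENSBTAG00000003305), which encodes a subunit of the NADPH oxidase of phagocytes, PADI4 (ENSBTAG00000012052), which encodes a peptidylarginine deiminase, and LYN (ENSBTAG00000020034), which encodes a SRC family kinase. These were 5 of 24596 gene IDs in the count tables, and 19458 of the IDs were above 0 in 1 or more heifers. The names came from the supplement of the study, which holds a sheet of the LF against CTRL comparison whose rows stand in order of increasing p-value. Which sheet gave each name was not looked up gene by gene. LYN also stood in a table of genes that differed between HF and LF. A small p-value of LF against CTRL is therefore no independent evidence for any of the 5. Every other comparison here reuses the LF heifers, the CTRL heifers or both, so none of them is free of that selection, and HF against LF was used directly for LYN.

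Neutrophils and macrophages are the phagocytes that clear spent sperm and bacteria from the uterus after mating or AI, and neutrophils cross the endometrium in numbers when semen is deposited. C1q is the recognition molecule of the classical complement pathway, made largely by tissue macrophages and dendritic cells, and its A, B and C chains are built into the same molecule. Neutrophils hold a ready store of the oxidase subunit p47phox, the product of NCF1, and in mice and humans they need the enzyme PAD4, the product of PADI4, to citrullinate histones when they cast out extracellular traps. LYN carries signals from antigen, Fc and integrin receptors in B cells and myeloid cells, both activating and inhibitory.

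RNA was sequenced from 1 uterine biopsy of each of 28 nulliparous heifers. Oestrus of all 28 was synchronised with a progesterone device, gonadotrophin-releasing hormone and prostaglandin F2 alpha, and all were given gonadotrophin-releasing hormone again at the time of AI. The HF group held 10 heifers inseminated with frozen-thawed semen of bulls with high field fertility, the LF group 10 heifers inseminated with semen of bulls with low field fertility, and the CTRL group 8 heifers with no insemination, so that no heifer received an insemination without sperm. Each semen group used 5 bulls with 2 heifers per bull, and the work ran in 2 study replicates of 14 heifers. Each heifer is called by its group and its number, such as HF4 or CTRL2. The labels give Holstein-Freisan as the breed of every sample, whereas the animal table of the study lists cross-bred heifers, of which 4 HF, 3 LF and 4 CTRL were Limousin crosses and 4 HF, 5 LF and 1 CTRL were Charolais crosses. The other 2 HF heifers were Belgian blue crosses, and the other 2 LF and 3 CTRL heifers were Aberdeen angus, Simmental or Saler crosses. All of these were pooled as 1 class in the fits with breed cross as a term. Breed and treatment can thus be told apart only in part. The tissue was intercaruncular endometrium cut away from the muscle layer.

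Total counts per heifer were 14872812 to 25633259, and all pairs of heifers within a group differed by more than sampling noise. Levels are given as CPM, counts scaled to the size of each library, which depend on gene length and are compared here between heifers and not between genes. Adjusted p is the Benjamini-Hochberg value over all genes of a fit and was called under 0.05. Markers of smooth muscle, a tissue that the dissection aimed to remove, were present in all libraries. Their summed level over the 8 markers with a name of 15 in the list was 1298 to 9305 CPM in HF heifers, 1031 to 9401 CPM in LF heifers and 2029 to 14530 CPM in CTRL heifers, and in HF and LF together against CTRL all 8 had a log2 fold change below 0, with a median of -1.15, of which 6 had an unadjusted p under 0.05 and 0 an adjusted p under 0.05 in edgeR. In that comparison 5.99% of all genes were lower at an unadjusted p under 0.05 in edgeR, and 58% of the genes with a name passed it in either direction. In whole tissue, fewer cells of a type and less RNA per cell cannot be told apart.

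The chains of C1q were counted deeply in every heifer, with 605 to 2255 counts of C1QA and 460 to 1533 counts of C1QB. C1QA was at 39.3 to 104 CPM in HF heifers (median 65.9) and at 43.2 to 122 CPM in LF heifers (median 69.8), against 34.5 to 83.4 CPM in CTRL heifers (median 56.9). The means were 67.4 ± 18.0 CPM in HF, 73.6 ± 24.2 CPM in LF and 56.6 ± 16.0 CPM in CTRL heifers (SD, n = 10, 10 and 8), so that LF stood highest and CTRL lowest, and each step of this order was smaller than the SD within a group. The ranges overlapped widely, although 15 of the 20 inseminated heifers lay above the CTRL median and 4 lay above every CTRL heifer.

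C1QB stood alike in both inseminated groups. It was at 31.5 to 75.0 CPM in HF heifers (median 44.8) and at 25.7 to 60.8 CPM in LF heifers (median 46.2), against 29.2 to 55.4 CPM in CTRL heifers (median 38.6). The means were 46.4 ± 12.6 and 46.3 ± 9.62 CPM in HF and LF heifers, against 39.1 ± 9.11 CPM in CTRL heifers. Of the 20 inseminated heifers 16 lay above the CTRL median, and the lowest value of all 28 was that of LF1. C1QC, the gene of the C chain and not among the 5, averaged 51.7 ± 13.2 CPM in HF, 51.8 ± 10.3 CPM in LF and 40.2 ± 11.3 CPM in CTRL heifers, with 17 of 20 inseminated heifers above the CTRL median.

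**Figure D1:**
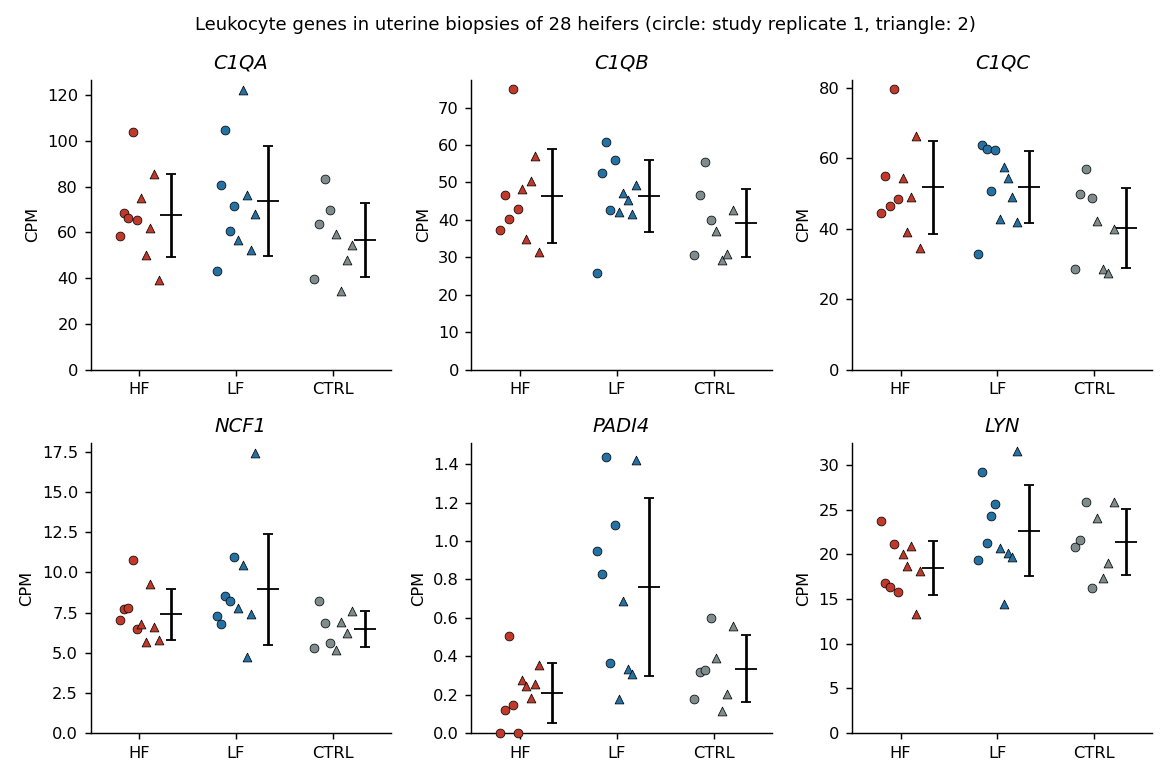
Level of each gene in CPM (vertical axes, starting at 0) in every heifer of the HF, LF and CTRL groups, with circles for study replicate 1 and triangles for study replicate 2, and bars for the mean and SD of 10, 10 and 8 heifers. The groups overlap in every panel, and PADI4 lies lowest in HF heifers (0 to 0.507 CPM) and widest in LF heifers (0.176 to 1.44 CPM).

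NCF1 was counted 86 to 306 times per heifer. Its level was 5.67 to 10.8 CPM in HF heifers (median 6.89) and 4.75 to 17.4 CPM in LF heifers (median 8.0), against 5.14 to 8.19 CPM in CTRL heifers (median 6.53). LF10 stood far above the rest at 17.4 CPM, the next LF heifer being LF5 at 10.95 CPM, and both had been inseminated with semen of bull 5. The means were 7.38 ± 1.58 CPM in HF, 8.96 ± 3.46 CPM in LF and 6.48 ± 1.11 CPM in CTRL heifers, with LF highest and CTRL lowest, and neighbours in this order differed by less than the larger SD. In 7 of 10 HF heifers and 9 of 10 LF heifers NCF1 lay above the CTRL median.

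PADI4 was near the limit of what these libraries can count, at 0 to 31 counts per heifer. HF heifers had 0, 3, 10, 3, 0, 6, 5, 3, 4 and 7 counts in order of their numbers and LF heifers 21, 18, 31, 7, 20, 3, 12, 6, 6 and 25 counts, against 3, 7, 7, 10, 7, 2, 3 and 13 counts in CTRL heifers. The sums were 41 counts over 10 HF heifers and 149 over 10 LF heifers, against 52 over 8 CTRL heifers. A count of 0 in HF1 and in HF5 allows up to 3 counts or 0.151 CPM in either library, by counting error alone. Scaled to library size, PADI4 was at 0.209 ± 0.155 CPM in HF and 0.759 ± 0.464 CPM in LF heifers, against 0.335 ± 0.175 CPM in CTRL heifers. All 10 HF heifers lay below the LF median, 6 LF heifers lay above every HF and every CTRL heifer, and the 4 others lay within the CTRL range.

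LYN, like PADI4, had its HF mean below that of CTRL and its LF mean above it. It was at 13.3 to 23.7 CPM in HF heifers (median 18.4) and at 14.5 to 31.5 CPM in LF heifers (median 21.0), against 16.2 to 25.9 CPM in CTRL heifers (median 21.2). The means were 18.5 ± 3.06 CPM in HF, 22.6 ± 5.08 CPM in LF and 21.4 ± 3.70 CPM in CTRL heifers, and neighbours in their order differed by less than the SD within a group. In 9 of 10 HF heifers LYN lay below the CTRL median, while LF heifers split evenly around it with 5 above and 5 below, and the highest value was again that of LF10.

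The first comparison, of HF and LF together against CTRL, asked whether the transcripts were more abundant after semen of either kind. None of the 5 genes passed. edgeR called 0 of 15163 genes, which is 0% of them, and 0 of the 5 had an unadjusted p under 0.05, against 11.6% of all genes (5.57% higher and 5.99% lower). DESeq2 called 27 genes or 0.168% of those with an adjusted p, and 0 of the 5, of which NCF1 alone had an unadjusted p under 0.05 (0.048), against 10.7% of all genes. The log2 fold change was 0.33 for NCF1 (SE 0.17, 95% interval -0.012 to 0.67, edgeR adjusted p = 0.448, DESeq2 adjusted p = 0.393), which is 1.25-fold. It was 0.32 for C1QA (SE 0.17, interval -0.038 to 0.67, edgeR adjusted p = 0.482) and 0.25 for C1QB (SE 0.14, interval -0.048 to 0.54, edgeR adjusted p = 0.506). For these 3 genes the data leave room for a level up to 1.59, 1.59 and 1.45 times that of CTRL heifers. PADI4 gave 0.23 with a far wider interval (-0.67 to 1.14, edgeR adjusted p = 0.868) and LYN -0.06 (-0.31 to 0.18, edgeR adjusted p = 0.871). In this contrast 4 of 5 genes lay above 0 with a median of 0.25, beside 48.9% and a median of -0.0058 for all genes tested.

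Within study replicate 1 the log2 fold change of C1QA was 0.17 and within study replicate 2 it was 0.50, and C1QB had 0.15 and 0.37 in the same order. NCF1 had 0.33 in both. C1QA and C1QB varied against the smooth muscle markers across the 28 heifers, with correlations of log2 CPM of -0.44 for C1QA and -0.52 for C1QB, beside -0.09 for NCF1, -0.24 for PADI4 and -0.11 for LYN (each point is 1 library, and the values are a description). When the mean level of the smooth muscle markers entered the fit, the log2 fold change was 0.19 for C1QA and 0.11 for C1QB, and 0.36 for NCF1. With breed cross as a term it was 0.36, 0.33 and 0.34 for C1QA, C1QB and NCF1, and turned to -0.06 for PADI4. No adjusted p of the 5 in any of these fits was under 0.05.

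**Figure D2:**
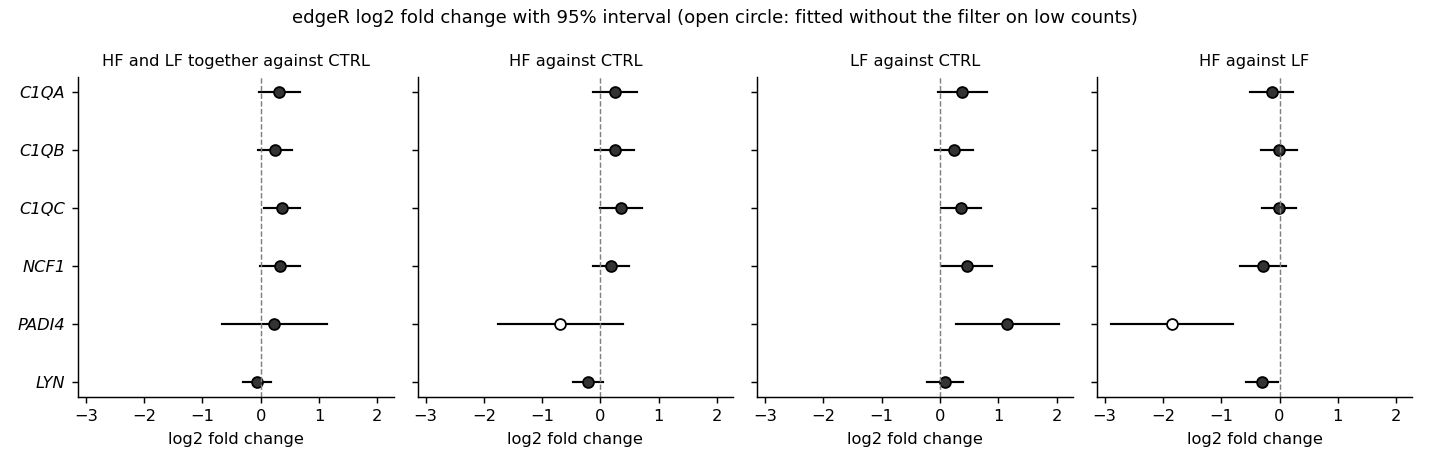
edgeR log2 fold change (horizontal axes) of 6 genes in the 4 comparisons, as a circle with its 95% interval, where a positive value means a higher level in the group named first. An open circle marks PADI4 fitted without the filter on low counts, PADI4 lies farthest from 0 (1.16 in LF against CTRL and -1.84 in HF against LF), and the C1q chains and NCF1 lie at 0.19 to 0.47 in every comparison with CTRL.

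The HF and LF groups were then set against CTRL one at a time, with the same 8 CTRL heifers in both, so the pair of comparisons is not independent. In HF against CTRL, edgeR called 0 of 14885 genes (0%), with 16% at an unadjusted p under 0.05, and DESeq2 called 328 genes (2.12%). 0 of the 5 members was called by either tool or had an unadjusted p under 0.05 in either, against 15% of all genes in DESeq2 and 38.1% of the genes with a name in edgeR. Of the 4 members tested 3 lay above 0, beside 46.4% of all genes. C1QA and C1QB both gave 0.25 (SE 0.18 and 0.16, edgeR adjusted p = 0.509 and 0.467), NCF1 gave 0.19 (SE 0.15, edgeR adjusted p = 0.552) and LYN -0.21 (SE 0.12, edgeR adjusted p = 0.418). PADI4 was removed by the filter on low counts in this pair, and without the filter it gave -0.69 (SE 0.52, edgeR adjusted p = 0.54).

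In LF against CTRL, edgeR called 0 of 14849 genes (0%), with 5.65% at an unadjusted p under 0.05, and DESeq2 called 2 genes (0.0104%) with 0 of the 5 among them. PADI4 and NCF1 had an unadjusted p under 0.05 in both tools, where 2.94% of all genes were higher at that level in edgeR, 6.03% of all genes passed it in DESeq2 and 44.6% of the genes with a name passed it in edgeR. All 5 lay above 0, beside 51.8% of all genes and 49% of the genes with a name. PADI4 gave 1.16, which is 2.23-fold (SE 0.42, interval 0.28 to 2.03, unadjusted p = 0.0127 and adjusted p = 0.874 in edgeR). NCF1 gave 0.47, which is 1.38-fold (SE 0.21, interval 0.036 to 0.90, unadjusted p = 0.0351 and adjusted p = 0.874 in edgeR). Without LF10 the value of NCF1 was 0.31, with an unadjusted p of 0.087 in edgeR. C1QA gave 0.38 (SE 0.20), C1QB 0.25 (SE 0.15) and LYN 0.08 (SE 0.15), with edgeR adjusted p = 0.874, 0.874 and 0.948. Without LF7, the heifer with the highest C1QA, the value of C1QA was 0.27 in LF against CTRL and -0.030 in HF against LF.

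HF against LF asked whether levels differed between heifers given semen of bulls with high and with low fertility. As in the other main fits, heifers of the same bull entered as independent. The SE, intervals and p-values therefore describe heifers and not bulls. edgeR called 0 of 14793 genes (0%), with 7.92% at an unadjusted p under 0.05, and DESeq2 called 27 (0.162%), with 0 of the 5 among them in the fit of all 20 heifers. At an unadjusted p under 0.05 stood LYN and, without the filter on low counts, PADI4 in edgeR, where 4.6% of all genes were lower at that level and 10.4% of the genes with a name passed it, and the same pair in DESeq2, where 7.97% of all genes passed it. The 4 members tested all lay below 0, where 43.2% of all genes and 50% of the genes with a name lay above it. PADI4 had the largest difference of the 5, at -1.84 or 3.58-fold lower in HF heifers (SE 0.51, interval -2.89 to -0.79, unadjusted p = 0.00145 and adjusted p = 0.444 in edgeR without the filter on low counts, which removed the gene). DESeq2 gave -1.88 with an unadjusted p of 0.000103 and an adjusted p of 0.0533. The means were 0.155 CPM in 5 HF and 0.933 CPM in 5 LF heifers of study replicate 1, and 0.262 CPM in 5 HF and 0.585 CPM in 5 LF heifers of study replicate 2, so the distance between the groups was the smaller in study replicate 2. With the smooth muscle covariate DESeq2 did not call PADI4. The DESeq2 adjusted p came to 0.0325 with breed cross as a term and to 0.00689 with the counts of each bull summed, a fit that called many more genes in all than the main fit. These fits were chosen after seeing the data, as was the next. When each heifer was left out in turn, DESeq2 called PADI4 in 6 of 20 fits, those without HF3, HF7, LF6, LF7, LF8 or LF9, and its adjusted p ranged from 0.0246 to 0.149.

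LYN gave -0.30 in HF against LF, 1.23-fold lower in HF heifers (SE 0.13, interval -0.58 to -0.021, unadjusted p = 0.0364 and adjusted p = 0.593 in edgeR). DESeq2, the tool of the study, also gave -0.30, with an adjusted p of 0.459. The study listed LYN as differing between these groups, a call that was not reproduced here. NCF1 gave -0.29 (SE 0.19, interval -0.68 to 0.11, edgeR adjusted p = 0.746), and without LF10 it gave -0.13. C1QA gave -0.14 (interval -0.51 to 0.23, edgeR adjusted p = 0.93) and C1QB -0.0076 (interval -0.32 to 0.31, edgeR adjusted p = 0.998), so the level of C1QB in HF heifers could lie anywhere from 0.80 to 1.24 times that in LF heifers. KRT8, an epithelial keratin, was at 118 ± 33.2 CPM in HF and 167 ± 37.4 CPM in LF heifers, against 112 ± 47.4 CPM in CTRL heifers, and its correlation of log2 CPM over 28 heifers was 0.43 with PADI4 and 0.29 with LYN. The part of the epithelium in these values was not tested.

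Both heifers of 1 bull were then compared, as 5 bulls stood behind each semen group. For PADI4 the heifers of bull 5 (LF5 and LF10) had 1.08 and 1.42 CPM and those of bull 2 had 0.829 and 0.688 CPM, whereas those of bull 3 had 1.44 and 0.332 CPM and those of bull 1 had 0.946 and 0.176 CPM. High values were thus spread over 4 of the 5 LF bulls and were found in 1 heifer alone for bulls 1 and 3. The bull means ran from 0.137 to 0.345 CPM in HF and from 0.336 to 1.25 CPM in LF. For C1QA both heifers of bull 9 (HF4 and HF9) were the highest of the HF group at 104 and 85.6 CPM. Bull 5 gave the 2 highest NCF1 values of the LF group, and LYN of 25.6 and 31.5 CPM. These bulls were picked after their values were seen. The median difference in log2 CPM between heifers of the same bull, set against that between heifers of different bulls of the group, was 0.37 against 0.39 for C1QA in HF and 0.39 against 0.50 in LF. It was 0.25 against 0.25 for LYN in HF and 0.30 against 0.37 in LF, and 0.25 against 0.25 for NCF1 in HF and 0.61 against 0.49 in LF. PADI4 had 1.09 against 0.76 in HF and 0.36 against 0.96 in LF. Each of the 5 same-bull pairs of a group held 1 heifer of each study replicate, whereas pairs of different bulls also came from within a study replicate, so bull and study replicate cannot be told apart in these differences.

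**Figure D3:**
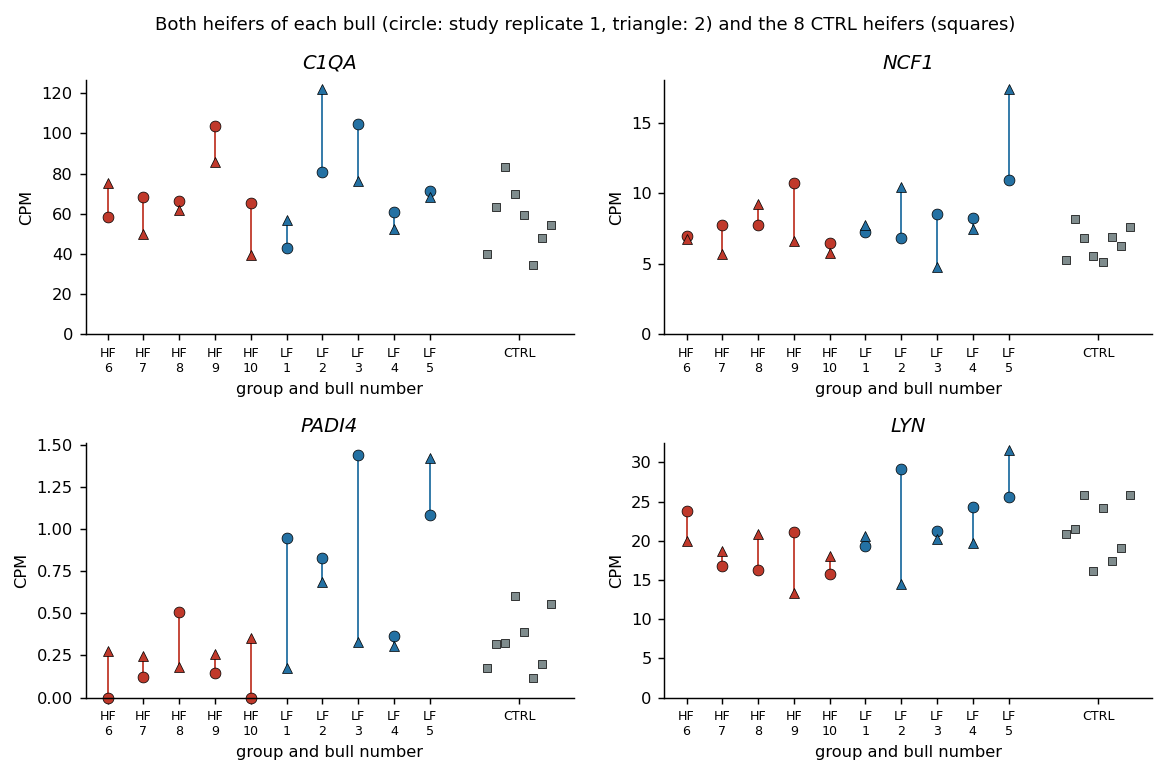
Level in CPM (vertical axes) of C1QA, NCF1, PADI4 and LYN in both heifers of each bull, joined by a line, for HF bulls 6 to 10 and LF bulls 1 to 5, beside the 8 CTRL heifers as squares. Bull 5 holds the highest NCF1 (17.4 CPM) and LYN (31.5 CPM), and the PADI4 pairs of bulls 1 and 3 are split between a high heifer and one within the CTRL range.

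Breed was looked at in the same way. Within the HF group, Limousin crosses had 81.6 ± 17.6 CPM of C1QA and 57.6 ± 12.1 CPM of C1QB (n = 4) and Charolais crosses 53.5 ± 11.6 and 35.9 ± 3.66 CPM (n = 4). In the LF group C1QA had the other order, with 67.04 ± 14.2 CPM in 3 Limousin crosses and 79.7 ± 33.1 CPM in 5 Charolais crosses, while C1QB was close in both, at 47.9 ± 5.68 and 46.3 ± 13.7 CPM. PADI4 was at 0.215 ± 0.060 and 0.276 ± 0.213 CPM in Limousin and Charolais crosses of the HF group, and at 0.853 ± 0.559 and 0.867 ± 0.472 CPM in those of the LF group, so the LF values were the higher in both crosses.

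The C1q chains followed each other from heifer to heifer. Across the 28 heifers the correlation of log2 CPM was 0.86 between C1QA and C1QB, 0.88 between C1QA and C1QC and 0.92 between C1QB and C1QC, and 0.84, 0.88 and 0.92 after the mean of each group was taken off. In the gene order of the RefSeq table used here C1QC is the neighbour of C1QA, and 1 locus without a gene name stands between C1QC and C1QB. The number of C1QB counts per C1QA count was 0.605 to 0.815 in HF heifers and 0.581 to 0.796 in LF heifers except LF7, where it was 0.385, against 0.574 to 0.845 in CTRL heifers. LF7 had the most C1QA of all heifers (122 CPM) with 47.1 CPM of C1QB and 57.6 CPM of C1QC, both within the range of the other LF heifers. Whether the surplus lay in 1 part of the C1QA transcript cannot be read from counts per gene.

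**Figure D4:**
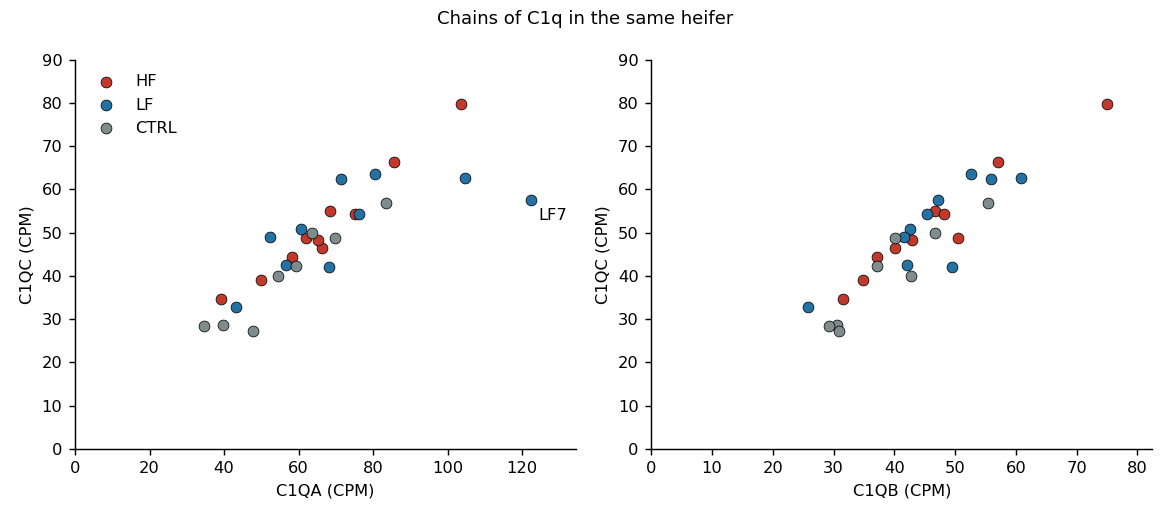
C1QC against C1QA (left) and against C1QB (right), in CPM on axes that start at 0, with a point for each of 10 HF, 10 LF and 8 CTRL heifers. Points lie along a line in both panels (correlations of log2 CPM 0.88 and 0.92) apart from LF7, whose C1QA of 122 CPM is the highest.

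The other members were not tied to C1q or to one another so closely. NCF1 had correlations of 0.38 with C1QA, 0.49 with C1QB, 0.38 with PADI4 and 0.32 with LYN, PADI4 had 0.28 with C1QA and 0.33 with LYN, and LYN had -0.02 with C1QA. The 5 genes most like each member were sought among the 15162 others by the same correlation. For C1QA they included C1QC, C1QB and the lysosomal proteases CTSS (0.81) and CTSC (0.81), both known from macrophages and other phagocytes. For C1QB they included C1QC, C1QA and NRROS (0.76), a protein of myeloid cells. NCF1 was most like a gene without a name (0.76) and JAML (0.76), an adhesion molecule of migrating leukocytes. PADI4 had GAPT (0.66), an adaptor of leukocytes, as the only partner with a name, and the 5 partners of LYN (0.83 to 0.88) had none. Sampling noise in the low counts of PADI4 bounds its correlations.

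Other genes of these pathways were read from lists drawn from textbook knowledge, of which only members with a name could be found. A name was itself tied to a small p-value, so that 58% of the named genes tested had an unadjusted p under 0.05 in HF and LF together against CTRL, and 49.1% had a log2 fold change above 0 with a median of -0.07. The counts below are to be read beside these shares. In all lists 0 genes had an edgeR adjusted p under 0.05 in that comparison, and DESeq2 called 0.

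The first list held the C1 complex and the rest of complement, with 8 of 27 genes named, of which 7 lay above 0 with a median of 0.34 and 3 had an unadjusted p under 0.05. These were C1S and C1R, the serine proteases that C1q activates, and C1QC. C1S was at 395 ± 103 CPM in HF and 317 ± 91.3 CPM in LF heifers, against 240 ± 66.5 CPM in CTRL heifers, and its log2 fold change was 0.56 (unadjusted p = 0.00279 and adjusted p = 0.26 in edgeR). C1R gave 0.43 and C1QC 0.36, with edgeR adjusted p = 0.348 and 0.378. The fourth by p was C1QA itself. In HF against CTRL, DESeq2 called C1S (adjusted p = 0.0159), which edgeR did not (adjusted p = 0.137). The lone gene below 0 was C7, a part of the membrane attack complex, at -0.56.

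Macrophage and monocyte markers had 7 of 28 genes named, of which 6 lay above 0 with a median of 0.35 and 5 of them had an unadjusted p under 0.05. The smallest p-values were those of CLEC10A, a lectin of macrophages and dendritic cells (1.01), CD74, the invariant chain of MHC class II (0.26), the lysosomal protease CTSS (0.32) and the lysosomal lipase LIPA (0.35), with edgeR adjusted p of 0.277, 0.348, 0.348 and 0.352. CLEC10A averaged 1.99 ± 1.12 CPM in HF and 1.52 ± 0.749 CPM in LF heifers, against 0.861 ± 0.409 CPM in CTRL heifers, and DESeq2 called it in HF against CTRL (adjusted p = 0.0361, with 0.157 in edgeR). LYVE1, of resident macrophages and lymphatic vessels, lay below 0 at -0.48, also at an unadjusted p under 0.05 (0.0368, edgeR adjusted p = 0.417). The summed level of the list was 722 to 1235 CPM in HF and 760 to 1260 CPM in LF heifers, against 672 to 953 CPM in CTRL heifers. CSF1R, CD68, CD14 and CD163, which define macrophages, were not analysed here because no name led to their IDs.

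Genes listed as neutrophil markers were named for 4 of 26, and CLEC4E among them is not restricted to neutrophils. All 4 lay above 0, with a median of 0.42. CLEC4E, a receptor for microbial and cell debris glycolipids, gave 0.89 with the only unadjusted p under 0.05 of the list (0.0279, adjusted p = 0.399 in edgeR), and averaged 5.66 ± 3.77 CPM in HF and 6.42 ± 4.02 CPM in LF heifers, against 3.24 ± 1.96 CPM in CTRL heifers. RASGRP4, VNN2 and HK3 gave 0.32, 0.51 and 0.21. With the groups taken one at a time, 2 of the 4 lay above 0 in HF against CTRL, with a median of 0.14 and 0 at an unadjusted p under 0.05 (VNN2 at -0.0041 and HK3 at -0.10), and all 4 lay above 0 in LF against CTRL, with a median of 0.75 and 1, CLEC4E, at an unadjusted p under 0.05. In HF against LF all 4 lay below 0, with a median of -0.41 and 2, HK3 (-0.63) and VNN2 (-1.04), at an unadjusted p under 0.05, beside a median of -0.033 for all genes, of which 4.6% were lower at that level. The 3 epithelial markers with a name lay below 0 as well in that comparison, with a median of -0.32 and 2 at an unadjusted p under 0.05. Of all named genes tested, 38.1% had an edgeR unadjusted p under 0.05 in HF against CTRL, 44.6% in LF against CTRL and 10.4% in HF against LF. The shares of named genes above 0 were 49.1%, 49% and 50% in the same order. The summed level of the neutrophil markers was 13.3 to 24.2 CPM in HF and 15.1 to 48.9 CPM in LF heifers, against 8.91 to 23.1 CPM in CTRL heifers. The granule proteins and receptors that define neutrophils best (MPO, ELANE, S100A8, S100A9, CSF3R and CXCR2) were not analysed here for the same reason, so neutrophils were not checked by them.

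Around NCF1, 4 of 12 genes of the phagocyte oxidase list were named and all 4 lay above 0, with a median of 0.27. NOXA1, an activator of the related oxidase NOX1, gave 0.31 (edgeR adjusted p = 0.386), the GTPase RAC2 gave 0.22 (0.461) and its exchange factor VAV1 0.22 (0.601), after NCF1 itself in the second place. PADI4 was the only peptidylarginine deiminase of 5 with a name. Of 9 SRC family kinases 2 had a name, and LCK, the kinase of T cells, gave 0.32 (edgeR adjusted p = 0.427) where LYN gave -0.06. Of 20 partners of LYN in leukocyte signalling 4 had a name, all above 0 with a median of 0.22. They were the adaptor LAT (0.28), the kinase TEC (0.21), the adaptor DOK2 (0.23) and the phosphatase PTPN6 (0.13), which in mice shares with LYN the restraint of myeloid cells.

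**Figure D5:**
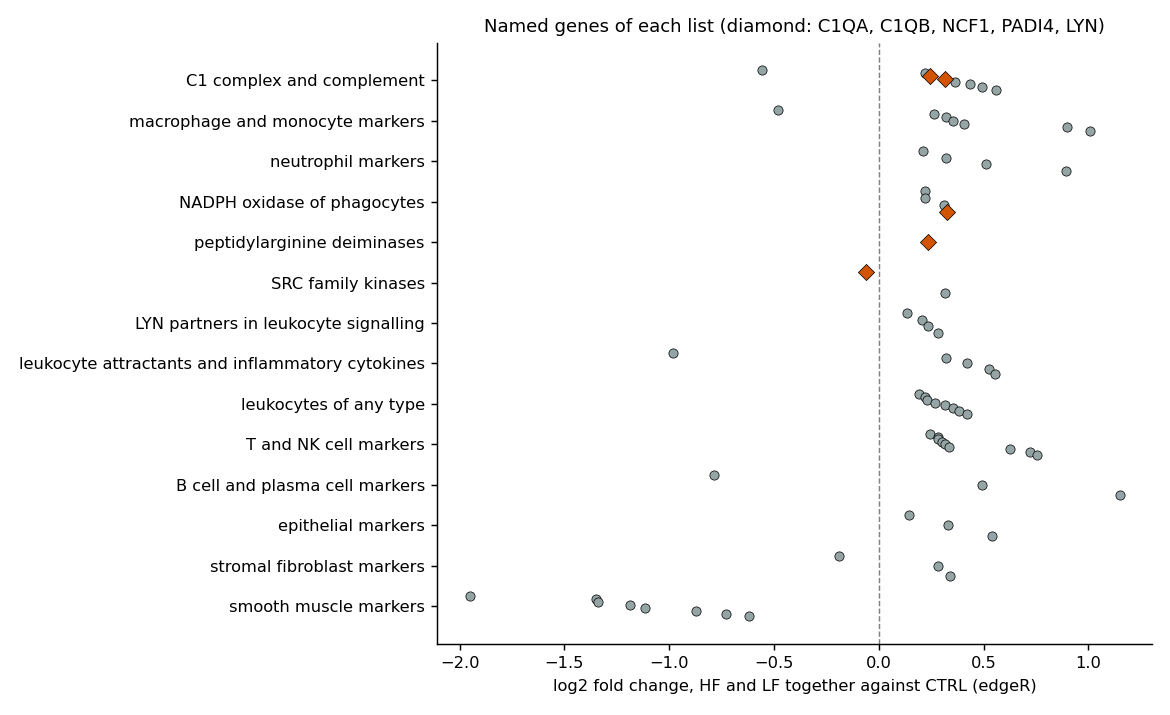
edgeR log2 fold change in HF and LF together against CTRL (horizontal axis) of each named gene in 14 lists, with a diamond for the 5 genes described here and a grey circle for the others. Most leukocyte genes lie between 0.1 and 1.1 and the 8 smooth muscle genes lie between -1.95 and -0.62, and 0 genes of these lists passed the adjusted threshold.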

How the data were processed

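The authors trimmed reads of stranded poly(A) libraries, mapped them with STAR to the cattle assembly ARS-UCD1.2, and deposited raw whole-number counts of uniquely mapped reads per Ensembl gene for each heifer, with no normalization. Versions in the processing notes of the submitters are STAR 2.6.1b and Subread 1.6.3. The sources used here do not give how the counting treated strand, so reads of antisense partners may be included.

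Counts were fitted in R 4.3.3 with edgeR 4.0.16 (TMM, filterByExpr at a minimum count of 10, glmQLFit, glmQLFTest, Benjamini-Hochberg adjusted p under 0.05), on the heifers of a pair alone, or on all 28 for HF and LF together against CTRL (the mean of both groups minus CTRL). DESeq2 1.42.0, the tool of the study, was the alternative. Both were tested on data simulated with the spread that edgeR estimates. DESeq2 made a larger share of false calls than edgeR in each comparison, and edgeR found fewer of the smaller planted changes. The spread came from edgeR itself and the tools tested different sets of genes, so the simulation cannot rank them on the real counts. Calls by DESeq2 alone are still to be read with caution, and an absence of calls in edgeR does not show an absence of differences. Changes were planted only in genes counted more deeply than PADI4, so the simulation does not bear on its calls. The SE is the log2 fold change divided by the square root of F, and 95% intervals use the t distribution. Genes that do not code for protein were kept. Log2 CPM used a prior count of 2.

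Names came from tables of the study, and 1522 of 24596 IDs had one, so every list is incomplete and set tests were not run. The RefSeq table (assembly ARS-UCD2.0) holds no Ensembl IDs and served only for gene order. The members, the lists and the rule for naming genes (up to 4 per list by the smallest edgeR p, and those passing a test) were chosen with earlier results of these data known. The replicate numbers stand for no shared animal: same-numbered heifers had a correlation over 0.1 in 5 of 8 HF and CTRL pairs, 4 of 8 LF and CTRL pairs and 5 of 10 HF and LF pairs. The alternatives were RLE size factors, no filter, the replicate block, study replicate, breed cross, bull, smooth muscle level and leaving out each heifer.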

Additional observations from a re-analysis of the deposited data

Results flagged for a closer look

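Each of the 6 genes, C1QC included, was looked at in each of the 3 groups for a heifer far from the rest, and 1 of the 18 combinations held one, where chance gives about 5%. NCF1 in LF10 was 17.4 CPM, far above the next LF heifer at 10.95 CPM. The same heifer had the highest LYN (31.5 CPM) and the second highest PADI4 of its group (1.42 CPM), while its C1QA (68.2 CPM) and C1QB (49.4 CPM) were close to the LF medians. Without LF10, NCF1 in LF against CTRL had a log2 fold change of 0.31 in place of 0.47.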

How the results depend on the processing

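Over the 20 values of the 5 genes, 695 of 731 alternative fits kept the direction and the side of the threshold. Most of these fits left out 1 heifer only, and edgeR called 0 genes in every main comparison. A change of side was thus unlikely from the start, and the count is no measure of how firm the values are. Fits that gave no adjusted p, such as PADI4 in HF against CTRL in DESeq2, were counted by direction alone. In DESeq2, PADI4 passed in HF against LF with breed cross as a term (-1.90) and with bulls summed (-1.89), and in 6 of 20 fits without a heifer, all chosen after seeing the data (-2.13 to -1.73 over all 20). It did not pass with the smooth muscle covariate. The direction turned for PADI4 in HF and LF together against CTRL with breed cross as a term (-0.061 in edgeR and -0.071 in DESeq2), for LYN in study replicate 1 alone (0.0045), and for LYN in LF against CTRL in study replicate 2 alone (-0.013). C1QB in HF against LF lay at 0 and turned in study replicate 1 alone (0.017), with bulls summed (0.020, and 0.021 in DESeq2), with the smooth muscle covariate (0.0092, and 0.0098 in DESeq2), with all 28 heifers in 1 fit (0.0018) and in some fits without a heifer (-0.11 to 0.043 in edgeR, -0.11 to 0.045 in DESeq2). The causes were not tested.

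Counts of called genes depended on the tool, with 0 in edgeR in all 4 comparisons. For HF and LF together against CTRL they were 27 in DESeq2, 7 with breed cross, 2 with the smooth muscle covariate and 176 with bulls summed, and 2 in edgeR without the filter. For HF against CTRL they were 328, 98, 114 and 76 in the same DESeq2 fits, for LF against CTRL 2, 5, 3 and 0, and for HF against LF 27, 28, 45 and 226. Leaving out a heifer gave 0 to 1 (1 without CTRL2, CTRL5, CTRL7 or CTRL8), 0 to 91 (91 without CTRL2 and 3 without CTRL6), 0 and 0 in edgeR, and 7 to 155 for HF against LF in DESeq2 (155 without HF7).

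With the replicate number as a block, edgeR called 0 genes in each comparison, and C1QA in HF and LF together against CTRL gave 0.39 (adjusted p = 0.482). The block changed no call of the 5 genes, and as the numbers pair no heifers it says nothing more. PADI4 has no value in HF against CTRL and HF against LF where the filter on low counts removed it. At 0 to 31 counts per heifer its value rests on few reads. Members without a name could not be read in any list, and 8 to 10 heifers a group leave intervals wide enough to hold both no difference and a 1.5-fold one for C1QA and NCF1 in HF and LF together against CTRL.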

Other observations

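Genes listed for leukocytes of any type, not all of them shared by every leukocyte, were named for 8 of 16. All 8 had a log2 fold change above 0 in HF and LF together against CTRL, with a median of 0.29 and 4 at an unadjusted p under 0.05. All named genes tested had a median of -0.07, and 58% of them had an edgeR unadjusted p under 0.05 in either direction. T and NK cell markers were named for 9 of 19, and all 9 lay above 0, with a median of 0.32 and 5 at an unadjusted p under 0.05, a share no larger than that of all named genes. Among them CD4 gave 0.62, CD27 0.76 and CD247, a chain of the T cell receptor complex, 0.34. B cell and plasma cell markers were split, with MZB1 at 1.15, CR2 at 0.49 and CD180 at -0.79. The value of MZB1 depended on the tool, with 0.51 in DESeq2. Its level was 3.19 ± 5.97 CPM in HF and 1.65 ± 1.30 CPM in LF heifers, against 1.03 ± 0.418 CPM in CTRL heifers. Of mast cell and eosinophil markers 0 of 10 had a name, and of endothelial and blood markers only FLT4 (-0.30). RAC2, LCK, LAT and CR2 also stand in other lists given here, so the lists are not independent.

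Among attractants and inflammatory cytokines 5 of 23 had a name and 4 lay above 0. IL1A, an early alarm cytokine, was at 4.84 ± 4.61 CPM in HF and 0.834 ± 0.521 CPM in LF heifers, against 1.37 ± 1.49 CPM in CTRL heifers, and DESeq2 called it in HF against LF (adjusted p = 0.00098, with 0.357 in edgeR) and in HF against CTRL (adjusted p = 0.0364, with 0.165 in edgeR). Its order of groups, with HF above CTRL and CTRL above LF, was the reverse of that of PADI4 and LYN. LTB, which directs lymphoid tissue, gave 0.53 in HF and LF together against CTRL (edgeR adjusted p = 0.349), IL34, a ligand of the macrophage growth factor receptor, 0.42, CX3CL1 0.32 and the eosinophil attractant CCL11 -0.98. Epithelial markers with a name, 3 of 13, lay above 0 with a median of 0.33. Of 3 stromal markers with a name of 10, VIM gave 0.34, FBLN1 0.28 and HAND2 -0.19 (-0.40 in LF against CTRL, at an unadjusted p of 0.0389 in edgeR), and DESeq2 called VIM in HF against CTRL (adjusted p = 0.0316, with 0.158 in edgeR).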
